A study of Mus musculus with 25 samples.

Results

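Leukotrienes and prostaglandins are signalling lipids made from arachidonic acid, and 10 genes of their synthesis and breakdown were followed in irradiated mouse lung: Alox5, Alox5ap, Lta4h, Ltc4s, Ptgs1, Ptgs2, Ptges, Ptgis, Ptgds and Hpgd. They were taken by name, and each was represented by the probe set (the array feature that reports a transcript) annotated with that symbol alone. Where a gene had several such probe sets, the one with the highest mean log2(signal + 16) over all arrays stood for it. The annotation used here gave such a probe set for 9 of the 10, and all 9 were bright enough to be tested, among 12937 tested genes of 18193 with a probe set in the whole series. Ptgs1, which encodes cyclooxygenase-1, had none with its symbol and was not analysed here.

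The series holds 25 arrays of whole lung RNA, 1 per mouse, from wildtype female C57BL/6J mice of 14 to 17 weeks and 20 to 25 g. The 3 compounds were (S)-FTY-phosphonate (fTyS), a phosphonate analogue of FTY720, FTY720 itself (FTY), and SEW-2871 (SEW), each injected intraperitoneally at 0.1 mg/kg 2 times per week. The groups were radiation with fTyS, radiation with FTY, radiation with SEW, radiation alone, fTyS alone, FTY alone and SEW alone, with 3 mice each, and 4 control mice given PBS. Radiation was a single thoracic dose of 25 Gy in each of the 4 irradiated groups. The labels used here do not give the time between irradiation and collection or whether the mice given radiation alone also received PBS injections. FTY720 and SEW-2871 act on receptors of sphingosine-1-phosphate, a lipid that controls lymphocyte traffic and the tightness of vessel walls. The surfactant gene Sftpc, a marker of alveolar type 2 cells, had a signal of 9531 to 11074 on all 25 arrays.

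In the leukotriene branch, 5-lipoxygenase (Alox5) oxidises arachidonic acid with the help of the 5-lipoxygenase activating protein (Alox5ap), a membrane protein that presents the substrate to it. The product, leukotriene A4, is turned by Lta4h into leukotriene B4, which attracts neutrophils, or joined to glutathione by Ltc4s to give the cysteinyl leukotrienes, which constrict airways and make vessels leak. In the prostanoid branch, the cyclooxygenases make prostaglandin H2, with Ptgs2 encoding the inducible form. Ptges, Ptgis and Ptgds then make prostaglandin E2, prostacyclin and prostaglandin D2, and Hpgd, an enzyme abundant in lung, inactivates prostaglandins. Alox5, Alox5ap and Ltc4s are expressed mostly by myeloid cells, while Ptgis and Hpgd belong mostly to vessel and epithelial cells.

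The promoter windows of Alox5 and Ptgs2 are shown because these 2 genes were called in one of the 7 comparisons of radiation or a compound with control, or of a compound added to radiation, and have a window in the RefSeq table used here, which runs from 250 bases before to 50 bases after the transcription start (build GRCm38.p6). Alox5 lies on the minus strand at chr6:116461129-116461428 and Ptgs2 on the plus strand at chr1:150099781-150100080, and both windows are written 5′ to 3′ along the gene. Alox5ap, the third gene so called, has no window printed here. Capitals mark matches to 5 short motifs searched on both strands.
Alox5: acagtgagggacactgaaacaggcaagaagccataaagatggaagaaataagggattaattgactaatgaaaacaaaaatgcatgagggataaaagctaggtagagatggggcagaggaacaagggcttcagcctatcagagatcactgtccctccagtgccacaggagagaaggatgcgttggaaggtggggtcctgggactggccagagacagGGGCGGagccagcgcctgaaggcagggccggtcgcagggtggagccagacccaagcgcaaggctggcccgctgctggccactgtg
Ptgs2: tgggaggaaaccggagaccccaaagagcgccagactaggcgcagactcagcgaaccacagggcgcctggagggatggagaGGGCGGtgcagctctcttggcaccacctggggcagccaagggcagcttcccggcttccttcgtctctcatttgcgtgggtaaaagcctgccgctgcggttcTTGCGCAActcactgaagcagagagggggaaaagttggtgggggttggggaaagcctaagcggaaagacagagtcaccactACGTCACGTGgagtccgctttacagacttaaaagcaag
The GC box GGGCGG was found 35 to 30 bases before the start in Alox5 and 170 to 165 bases before it in Ptgs2, and 35.7% of 32851 mouse promoter windows of the same length hold it. In Ptgs2 the C/EBP palindrome TTGCGCAA was found 69 to 62 bases before the start, and it is in 0.183% of windows. The CRE core TGACGT was read on the minus strand at bases 13 to 18 after the Ptgs2 start, and the E-box CACGTG overlapped it at bases 17 to 22. The CRE core is in 7.51% of windows and the E-box in 7.15%. The TATA box TATAAA, in 13.6% of windows, was in neither window. These matches describe the letters only.

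Signals are linear array units as deposited, fold changes are differences of group means of log2(signal + 16), and a gene was called at an adjusted p of at most 0.05 (limma, Benjamini-Hochberg over 12937 genes). Levels of different genes are not compared, since each is read by its own probe set. The number of arrays limits the precision. 1 control array stood with the irradiated ones. Over 9 tested p53 target genes, control replicate 4 had a mean log2 level of 10.43, against 10.28 to 10.46 on the 12 irradiated arrays and 9.31 to 9.72 on the other 12 unirradiated arrays. Its Ptgs2 signal of 1449 was the highest of all 25 arrays, and its Alox5, Alox5ap and Ltc4s signals lay above those of the other 3 controls and inside the range of the irradiated arrays. Calls that use the controls are therefore given with and without it.

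**Figure D1:**
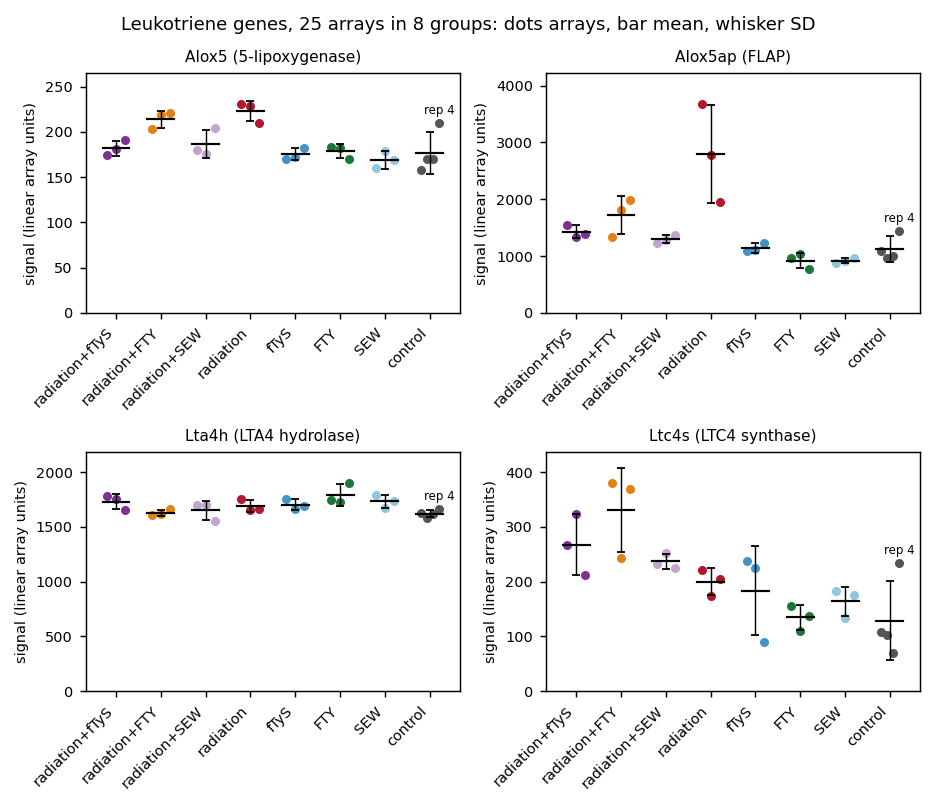
Signal (linear array units, vertical axis) of the 4 leukotriene genes on 25 arrays by group. Dots are arrays, bars group means and whiskers SD, and control replicate 4 is marked. Alox5ap stands highest after radiation alone, at 1949 to 3668.

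Radiation alone was first set against control to see which of the 9 genes differ in irradiated lung. Both partners of the first leukotriene step rose. Alox5ap was 2.42-fold and Alox5 1.25-fold higher in irradiated lungs on the signal + 16 scale. The 2 called members of 9 compare with 4.40% of all tested genes called in this comparison. The other 7 did not pass.

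Alox5ap had a signal of 3668, 2785 and 1949 in the 3 irradiated lungs, against 1089.9, 958, 1008 and 1449 in the 4 controls. All 3 irradiated lungs lay above all controls, with a wide spread among them. On the log2 scale the change was 1.27 (SE 0.17; adjusted p = 0.000342, limma). Without control replicate 4 it was 1.40 (adjusted p = 6.21e-05, limma). A fit on the compared arrays alone, which loses the spread shared with the other groups, gave an adjusted p of 0.0518 (limma). Alox5 had a signal of 230.3, 229 and 210.03 in irradiated lungs, against 158, 169.9, 169.6 and 209.7 in controls. The groups did not overlap, but irradiated replicate 3 and control replicate 4 differed by less than 1 unit. Its log2 fold change was 0.32 (SE 0.08; adjusted p = 0.024, limma), and 0.40 (adjusted p = 0.00128, limma) without control replicate 4. The call was lost when control replicate 1, 2 or 3 or radiation replicate 1 or 2 was left out, 5 of the 7 compared arrays.

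Further down the leukotriene branch, Ltc4s had a signal of 222, 173 and 205 in irradiated lungs, against 108, 102, 69.9 and 234 in controls. The irradiated lungs lay above 3 controls and below control replicate 4. The log2 fold change of 0.69 (SE 0.30) did not pass with all controls (adjusted p = 0.23, limma). Without control replicate 4 it was 0.99 (SE 0.26; adjusted p = 0.0251, limma). Lta4h, the leukotriene B4 enzyme, had 1752, 1652.5 and 1668 units in irradiated lungs, against 1626, 1579.9, 1615 and 1664 in controls. It differed by 0.06 on the log2 scale and by 0.07 without control replicate 4.

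In the prostanoid branch Ptgs2 had a signal of 742, 1239 and 1313 in irradiated lungs, against 393, 670.4, 571 and 1449 in controls. Again the irradiated lungs lay above 3 controls and below control replicate 4. The log2 fold change was 0.63 (SE 0.30; adjusted p = 0.293, limma) with all controls. It was 0.98 (SE 0.23; adjusted p = 0.013, limma) without control replicate 4, where 4 of the 9 members were called, among 6.83% of all genes. That array held the highest control signal in each of these 4, so their larger changes without it are built in. Same-numbered arrays deviated together in this comparison, and a fit with the replicate number as a block called the same count of 4, with Ltc4s at 0.99 (adjusted p = 0.0209, limma) and Ptgs2 at 0.98 (adjusted p = 0.0101, limma). In that fit control replicate 4 has no partner and drops out of the comparison.

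The remaining prostanoid genes were close in both groups. Ptgis averaged 2848 ± 495 units in irradiated lungs and 2806 ± 140 in controls (SD, n = 3 and 4). Hpgd averaged 7772 ± 660.2 units in irradiated lungs and 7323 ± 599.8 in controls (SD, n = 3 and 4). Ptges and Ptgds differed by 0.03 and 0.22 on the log2 scale, with adjusted p values of at least 0.286 for Ptgds over the fits with and without control replicate 4. Over the 9 members the median log2 fold change was 0.22, against -0.01 over all tested genes.

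**Figure D2:**
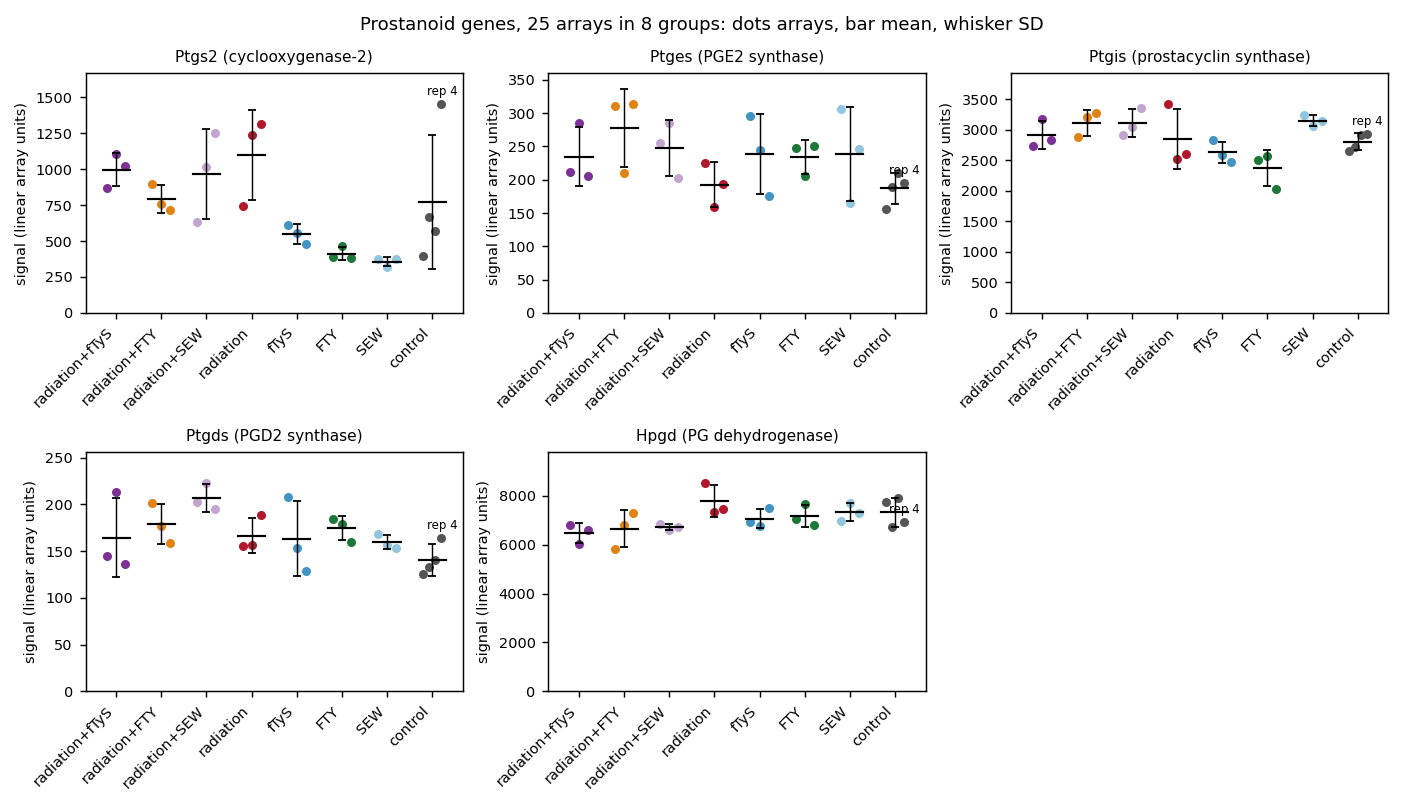
Signal (linear array units, vertical axis) of the 5 prostanoid genes on 25 arrays by group. Dots are arrays, bars group means and whiskers SD, and control replicate 4 is marked. Ptgs2 in control replicate 4, at 1449, lies above all 12 irradiated arrays.

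Alox5ap is a gene of myeloid cells, so the markers of these cells are given beside it. In whole lung, a different number of cells of a type and a different RNA level per cell cannot be told apart. Of 15 neutrophil genes listed, 13 had a probe set and 10 were tested, and 7 of these 10 rose in irradiated lungs. The summed signal of the 13 with a probe set ran from 15513 to 27928 in irradiated lungs and from 2941 to 7129 in controls. Of 8 tested monocyte and interstitial macrophage genes, 6 rose, with summed signals of 6979.8 to 10725 in irradiated lungs and 5035 to 6609 in controls. No listed marker of either type was at 0 on any array. Alveolar macrophage genes, also myeloid, went both ways: of 7 tested, 2 rose and 2 fell in irradiated lungs. The mean log2 level of the 8 with a probe set was 8.53 in irradiated lungs and 8.79 in controls. Their summed signal was 10052 to 11798 in irradiated lungs and 6616 to 9487 in controls. The 3 genes whose log2 levels ran most like Alox5ap over the 25 arrays were Apobr (r = 0.97), Pirb (r = 0.97) and Il1b (r = 0.97), of which Pirb encodes a myeloid receptor and Il1b a cytokine of activated macrophages and neutrophils. Alox5 ran with Alox5ap at r = 0.85, and its most alike genes were Gsr (r = 0.89), Ear3 (r = 0.89) and Clca3a1 (r = 0.88). These correlations mix 8 treatment groups and serve as a description. The part of the cell types in the change of Alox5ap was not tested.

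**Figure D3:**
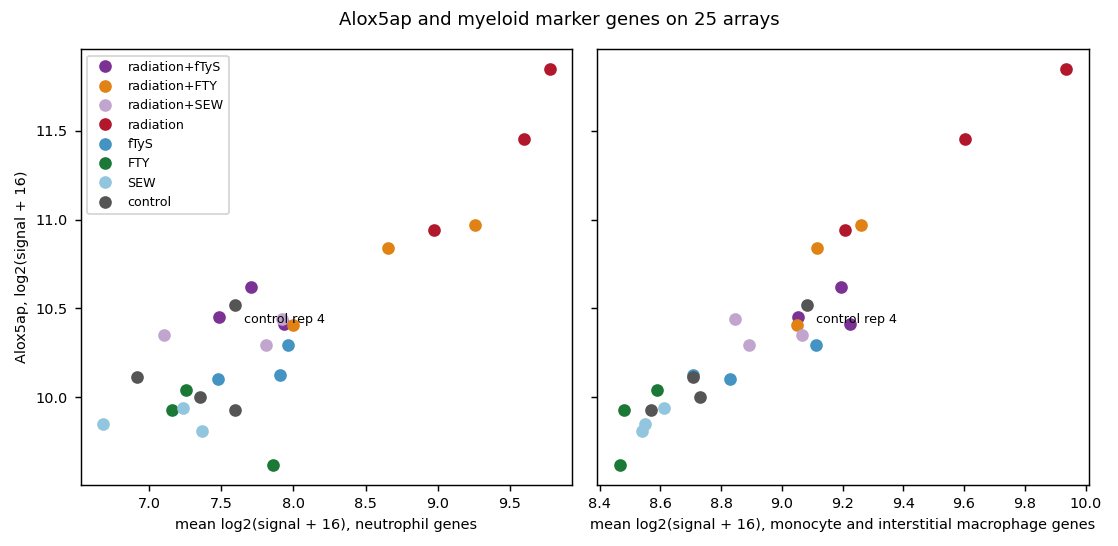
Alox5ap, as log2(signal + 16), against the mean log2(signal + 16) of the listed marker genes with a probe set, tested or not. Neutrophil genes are on the left and monocyte and interstitial macrophage genes on the right, with 1 dot per array, coloured by group. The arrays of radiation alone lie at the upper right in both panels.

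The study's central question was whether the compounds change the response of irradiated lung, and here the same 1 gene of the 9 was called in all 3 comparisons. Alox5ap fell with each compound: to 0.53 of the level after radiation alone with fTyS, to 0.63 with FTY and to 0.48 with SEW, on the signal + 16 scale. It was the single member called in each comparison. The background was 0.858% of genes called with fTyS, 3.02% with FTY and 2.48% with SEW. The 3 comparisons share the same 3 arrays of radiation alone, so they are not independent of each other.

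With fTyS, Alox5ap had a signal of 1556, 1344 and 1384 in irradiated lungs, against the 3668, 2785 and 1949 units after radiation alone. The groups did not overlap. On the log2 scale Alox5ap changed by -0.92 (SE 0.18; adjusted p = 0.0218, limma), but the call held in only 1 of 6 fits that left out an array of either group, without radiation replicate 3. In these fits the change lay between -1.16 and -0.70. Same-numbered arrays deviated together here, and with the replicate block the adjusted p was 0.0264 (limma). The block is shared by all groups in the fit, so this is not a paired test of these groups.

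With SEW, Alox5ap had a signal of 1239, 1291 and 1375 in irradiated lungs, again below all 3 arrays of radiation alone. The log2 fold change was -1.05 (SE 0.18; adjusted p = 0.00504, limma), the largest of the 3. It was called in all 6 fits that left out an array of either group, with a change between -1.29 and -0.83. With FTY the signals were 1342, 1814 and 1989.5, and the highest of them lay above the lowest array of radiation alone. The log2 fold change was -0.67 (SE 0.18; adjusted p = 0.0483, limma), and it was lost without radiation replicate 1 or 2 or radiation+FTY replicate 1 or 2. In fits on the compared arrays alone the adjusted p was 0.31 with fTyS, 0.177 with FTY and 0.0711 with SEW (limma). The plot of left-out arrays shows each of these fits.

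**Figure D4:**
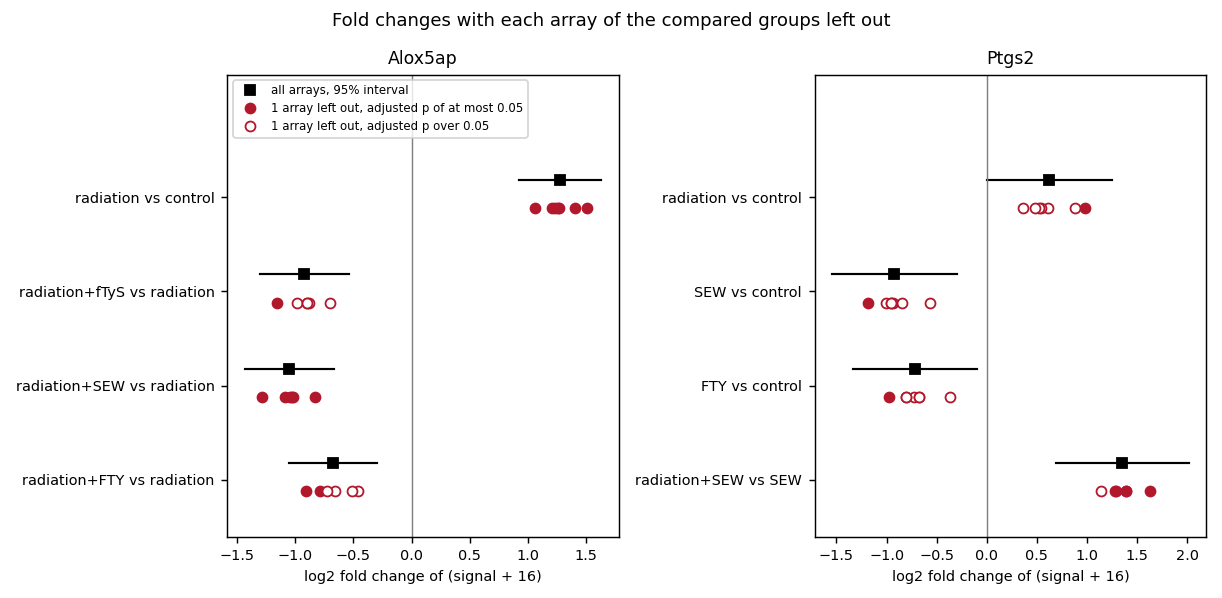
Log2 fold change (horizontal axis) of Alox5ap (left) and Ptgs2 (right) in 4 comparisons each. Squares with lines are the fit on all arrays with its 95% interval. Circles leave out 1 array of the compared groups, filled where the adjusted p was at most 0.05. Alox5ap in radiation+SEW against radiation is filled throughout, Ptgs2 in SEW against control in 1 of 7.

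Neutrophil genes fell in the same comparisons. Of the 10 tested, 5 fell with fTyS, 2 with FTY and 7 with SEW relative to radiation alone. The summed signal of all neutrophil genes with a probe set ran from 5309 to 11116 with fTyS and from 8429.9 to 18382 with FTY. It ran from 6888 to 9281 with SEW, against 15513 to 27928 after radiation alone. Of the 8 tested monocyte and interstitial macrophage genes, 0 fell with fTyS, 1 with FTY and 3 with SEW. Summed signals of the second list were 6617 to 7156 with fTyS, 6364 to 7282 with FTY and 5705 to 6998 with SEW, against 6979.8 to 10725 after radiation alone. Of the 7 tested alveolar macrophage genes, 0 rose and 0 fell with each compound. The part of these cell types in the fall of Alox5ap was not tested. Skeletal muscle and fat genes also varied between lungs, and summed muscle signals ran from 2273 to 50107 with FTY and radiation, against 1401 to 7573 after radiation alone. Summed adipocyte signals ran from 2090.2 to 7931 with FTY and radiation, against 883 to 1693 after radiation alone. With both lists as covariates the change of Alox5ap with FTY was -0.52 (adjusted p = 0.169, limma) and no longer passed.

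Alox5, the partner of Alox5ap, had a signal of 174, 181 and 191 with fTyS and radiation, and 179.6, 175 and 204 with SEW and radiation, against 230.3, 229 and 210.03 after radiation alone. Both compound groups lay below all arrays of radiation alone. The changes of -0.27 with fTyS (adjusted p = 0.138, limma) and -0.24 with SEW (adjusted p = 0.134, limma) did not pass. With FTY and radiation the signals of 203, 219 and 220.4 overlapped those of radiation alone, with a log2 difference of -0.06.

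Ltc4s had higher mean values with each compound. It had a signal of 268, 323 and 211 with fTyS, 380.5, 242 and 369.8 with FTY and 233, 252 and 226 with SEW, against 222, 173 and 205 after radiation alone. The FTY and SEW groups lay above all arrays of radiation alone. The log2 differences were 0.38 with fTyS (adjusted p = 0.692, limma), 0.66 with FTY (adjusted p = 0.215, limma) and 0.23 with SEW (adjusted p = 0.743, limma), and none passed. Mast cells are a known source of Ltc4s, and of 10 mast cell genes listed with a probe set 3 were bright enough to be tested. These were Kit at 789 to 1935 units, Hdc at 757 to 1677 and Tpsb2 at 70.2 to 100.1. Among those not tested, Mcpt4 lay between 1.13 and 47.7 units. The part of mast cells in the Ltc4s values was not tested. The summed adipocyte signal was 7931, 2090.2 and 7714 in the radiation and FTY lungs with 380.5, 242 and 369.8 units of Ltc4s, against 883 to 1693 after radiation alone. It was 527.6, 9815 and 1034 with radiation and fTyS and 2013, 5845 and 739 with radiation and SEW, in the order of the Ltc4s values above. In the unirradiated fTyS lungs with 237, 224 and 89.8 units of Ltc4s it was 10907, 7858 and 1518. With SEW alone it ran from 2566 to 10387, where Ltc4s had 134 to 184 units. With FTY alone it ran from 1552 to 6794, where Ltc4s had 110.6 to 156 units. In controls it ran from 635 to 2543, where Ltc4s had 69.9 to 234 units. Over all 25 arrays the log2 level of Ltc4s correlated with the adipocyte list at r = 0.32, as a description, and the part of fat in the Ltc4s values was not tested. With muscle and adipocyte lists as covariates the Ltc4s differences from radiation alone were 0.35 with fTyS, 0.45 with FTY and 0.17 with SEW.

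Ptgs2 was not called when a compound was added to radiation. It had a signal of 869.7, 1103 and 1019.96 with fTyS, 899, 758 and 717 with FTY and 629.8, 1013 and 1251 with SEW, against 742, 1239 and 1313 after radiation alone. All 3 groups overlapped the group of radiation alone. The log2 differences were -0.10 with fTyS (95% interval -0.76 to 0.56), -0.43 with FTY (-1.09 to 0.23) and -0.20 with SEW (-0.86 to 0.47). Each interval runs from a fall to a rise, so the direction of the change was not resolved.

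Hpgd, which inactivates prostaglandins, had lower values with each compound. It had a signal of 6801, 6009 and 6601 with fTyS, 5837, 6823 and 7309 with FTY and 6842, 6608 and 6720.3 with SEW, against 8531, 7333 and 7452 after radiation alone. No array of a compound group reached the lowest array of radiation alone. The log2 differences of -0.26 (adjusted p = 0.138), -0.23 (adjusted p = 0.108) and -0.21 (adjusted p = 0.189) did not pass in limma over all genes. In the share of members whose groups did not overlap, fTyS had 3 of 9, FTY 2 of 9 and SEW 5 of 9, while 17.7%, 27.7% and 27.1% of all tested genes did not overlap.

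Ptges had 211, 285 and 206 units with fTyS, 311, 210.1 and 313 with FTY and 254, 285 and 203 with SEW, against 226, 159 and 193 after radiation alone. Its log2 differences were 0.26, 0.49 and 0.34, with an adjusted p of 0.177 (limma) for FTY, and the ranges overlapped in all 3. Over the 25 arrays Ptges correlated with the adipocyte list at r = 0.78, as a description, and the part of fat in its values was not tested. Lta4h, Ptgis and Ptgds differed from radiation alone by at most 0.29 on the log2 scale, the value of Ptgds with SEW.

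**Figure D5:**
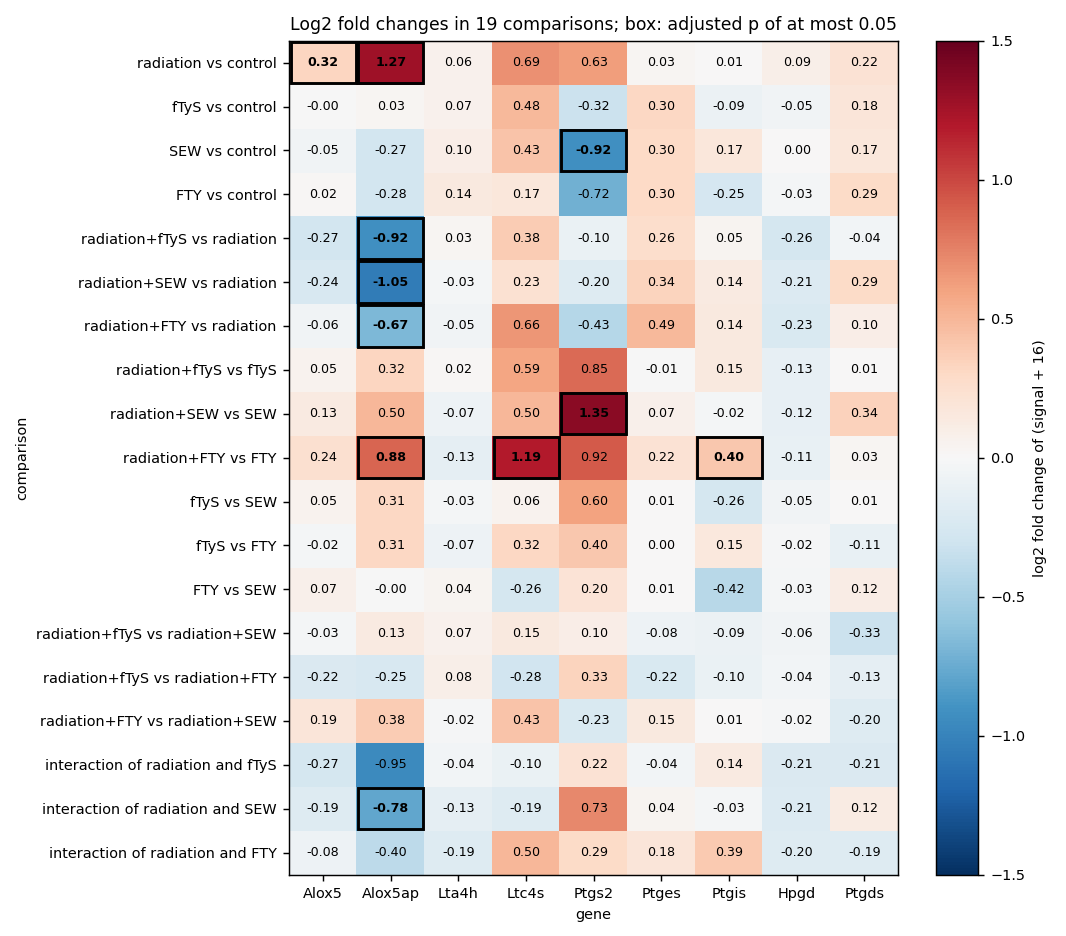
Log2 fold changes of the 9 genes (columns) in 19 comparisons (rows), with the first-named group minus the second. Boxed cells had an adjusted p of at most 0.05. Alox5ap holds 6 of the 11 boxes and Lta4h, Ptges, Hpgd and Ptgds hold none.

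In unirradiated lung the compounds were set against control to see what they do without injury. Across the 3 comparisons 1 member was called. Ptgs2 had a signal of 373.3, 318 and 373.7 with SEW, against 393, 670.4, 571 and 1449 in controls. The groups did not overlap, and the log2 fold change was -0.92 (SE 0.30; adjusted p = 0.0431, limma), where 14.6% of all tested genes were called. Without control replicate 4 the change was -0.57 (adjusted p = 0.105, limma) and no longer passed, and the call held in 1 of 7 fits that left out an array, the one without control replicate 1.

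Ptgs2 had 387, 464 and 383 units with FTY and 611, 556 and 477 with fTyS, against the same controls. The difference was -0.72 for FTY (adjusted p = 0.197, limma) with all controls and -0.36 without control replicate 4, and it passed without control replicate 1, at -0.98 (adjusted p = 0.0495, limma). For fTyS it was -0.32 with all controls and 0.03 without that array. No member was called with fTyS, where 0.178% of genes were called, or with FTY, where 2.73% were. At an unadjusted p under 0.05 in limma there were 0 members with fTyS, 3 with FTY and 2 with SEW. Alox5ap averaged 1140.2 ± 85.1 units with fTyS, 922 ± 138 with FTY and 918 ± 43.5 with SEW, against 1126 ± 222 in controls (SD, n = 3 and 4). Its log2 differences from control were 0.03, -0.28 and -0.27, and none passed. They were 0.16, -0.15 and -0.15 without control replicate 4, and none passed there either.

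Ptgis, the prostacyclin synthase of vessel walls, had a signal of 2513, 2569 and 2033 with FTY, against 2659, 2713, 2921 and 2931 in controls. All 3 FTY lungs lay below all controls, but the log2 change of -0.25 did not pass (adjusted p = 0.165, limma), and without control replicate 4 it was -0.23 (adjusted p = 0.25, limma). With SEW it averaged 3153 ± 92.3 units and with fTyS 2632 ± 179 (SD, n = 3). The SEW lungs, at 3063 to 3247 units, lay above all controls, and Ptgis was not called there. Lta4h had 1741, 1728 and 1903 units with FTY, above all controls, with a log2 difference of 0.14 (adjusted p = 0.105, limma), and of 0.15 (adjusted p = 0.0993, limma) without control replicate 4. With SEW it ran from 1676 to 1794 units, also above all controls, and was not called. The share of all tested genes whose groups did not overlap was not counted for comparisons with control.

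Each compound group with radiation was also set against the same compound without it, which asks how irradiated lung differs when both groups receive the compound and which does not use the controls. With fTyS, 0 of 9 members were called among 0.456% of genes, and 1 had an unadjusted p under 0.05. With SEW, 1 member was called among 17.7% of genes. With FTY, 3 members were called among 14.1% of genes. The share of all tested genes whose groups did not overlap was not counted for these comparisons.

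Ptgs2 had 629.8, 1013 and 1251 units with radiation and SEW, against 373.3, 318 and 373.7 with SEW alone. The groups were well apart, and the log2 fold change was 1.35 (SE 0.32; adjusted p = 0.00707, limma). The call was lost in 1 of 6 left-out fits, without radiation+SEW replicate 3, at 1.14 (adjusted p = 0.0524, limma). With radiation and FTY it had 899, 758 and 717 units, against 387, 464 and 383 with FTY alone, a difference of 0.92 (adjusted p = 0.06, limma). With radiation and fTyS it had 869.7, 1103 and 1019.96 units, against 611, 556 and 477 with fTyS alone, a difference of 0.85 (adjusted p = 0.238, limma). All 3 irradiated groups lay above their unirradiated partners, 1 of them with a call, and no share over all genes was counted beside this. The genes whose log2 levels ran most like Ptgs2 over the 25 arrays were Lif (r = 0.92), Gas6 (r = 0.91) and Fat1 (r = 0.88). Control replicate 4, high in Ptgs2, is among these arrays.

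Alox5ap had 1342, 1814 and 1989.5 units with radiation and FTY, against 958, 1038 and 769.9 with FTY alone. The log2 fold change was 0.88 (SE 0.18; adjusted p = 0.00483, limma), and it was called in all 6 left-out fits. With radiation and SEW it had 1239, 1291 and 1375 units, against 881, 907 and 966 with SEW alone, a difference of 0.50 (adjusted p = 0.0644, limma). With radiation and fTyS it had 1556, 1344 and 1384 units, against 1083, 1099 and 1238 with fTyS alone, a difference of 0.32 (adjusted p = 0.48, limma). The irradiated group lay above its partner in each of the 3 pairs, again without a share over all genes to set beside it. Of the 10 tested neutrophil genes, 5 rose with radiation and FTY against FTY alone, and 0 rose in the SEW and fTyS pairs. Of the 8 tested monocyte and interstitial macrophage genes, 5 rose in the FTY pair, 2 in the SEW pair and 0 in the fTyS pair. Their summed signals were 6364 to 7282 with radiation and FTY, against 4883 to 5562 with FTY alone, and 5705 to 6998 with radiation and SEW, against 5062 to 5362 with SEW alone. Of the 7 tested alveolar macrophage genes, 0 rose in each pair. In that list 1 fell in the FTY pair, 2 in the SEW pair and 1 in the fTyS pair.

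Ltc4s had 380.5, 242 and 369.8 units with radiation and FTY, against 156, 110.6 and 138 with FTY alone. All irradiated lungs lay above all lungs with FTY alone, with a log2 fold change of 1.19 (SE 0.32; adjusted p = 0.0187, limma). With muscle and adipocyte lists as covariates it was 1.26 (adjusted p = 0.0174, limma). The call was lost without FTY replicate 2 or radiation+FTY replicate 1 or 3. Ptgis had 2878, 3212 and 3275 units with radiation and FTY, against 2513, 2569 and 2033 with FTY alone. Its log2 fold change was 0.40 (SE 0.10; adjusted p = 0.0146, limma), and the call was lost without FTY replicate 3 or radiation+FTY replicate 2. The FTY-alone group was the lowest of all 8 for Ptgis. Another probe set of Ptges was called higher in radiation+FTY against FTY at 0.50 (adjusted p = 0.0209, limma over probe sets) and in radiation+SEW against SEW at 0.53 (adjusted p = 0.0137, limma over probe sets). The probe set that stands for Ptges here differed by 0.22 and 0.07 in those comparisons and was not called, so the Ptges probe sets disagree.

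Whether the effect of radiation itself differed with a compound was tested as an interaction: the radiation change with the compound minus the change without it. For Alox5ap the radiation change was 0.50 with SEW, against 1.27 without it, an interaction of -0.78 (SE 0.25; adjusted p = 0.0429, limma). This was 1 member among 13.9% of genes called. For fTyS the interaction was -0.95 (SE 0.25; adjusted p = 0.0612, limma), and for FTY it was -0.40 (SE 0.25; adjusted p = 0.347, limma). No member passed in these 2 comparisons, where 1.35% and 6.84% of genes were called and 2 members each had an unadjusted p under 0.05. Without control replicate 4 the interactions were -0.90 for SEW (adjusted p = 0.0189, limma) and -1.08 for fTyS (adjusted p = 0.0292, limma). Without radiation replicate 3 the fTyS interaction was -1.19 (adjusted p = 0.013, limma), and the SEW interaction passed in 2 of 13 fits that left out an array. The 3 interactions share the arrays of radiation alone and of control.

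The compounds were compared with each other at the same dose and schedule in 6 pairs, 3 without and 3 with radiation. No member was called in any of the 6, and the share of all genes called was 1.55% for fTyS against SEW, 3.95% for radiation+fTyS against radiation+FTY and 0% in the other four. Unadjusted p values under 0.05 in limma were found for 1 member in 5 of the pairs and for 0 in fTyS against FTY. Between fTyS and FTY, which differ by the phosphonate group, Alox5ap differed by 0.31 (95% interval -0.07 to 0.69) without radiation and by -0.25 (-0.63 to 0.13) with it. Ptgs2 differed by 0.40 (-0.26 to 1.06) without radiation and by 0.33 (-0.33 to 0.99) with it. Between FTY and SEW with radiation, Alox5ap differed by 0.38 (-0.004 to 0.76), with an adjusted p of 0.629 (limma). These intervals are wide, so the compounds are not shown to act alike on these genes.

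Across the 8 groups, by mean log2 level, Alox5ap was highest after radiation alone, then with radiation and FTY, fTyS and SEW, followed by fTyS, control, SEW and FTY. Neighbours in this order overlapped in their ranges except radiation+SEW, which lay narrowly above fTyS. Ltc4s had another order, with radiation and FTY highest, radiation and fTyS second, and control lowest. Ptgs2 was highest in the 4 irradiated groups, and FTY and SEW were lowest. Over the 25 arrays the log2 levels of Ltc4s correlated more with Ptges (r = 0.61) and Ptgds (r = 0.58) than with Alox5ap (r = 0.43), as a description of arrays from 8 groups. Lta4h stayed between 1549.6 and 1903 units and Hpgd between 5837 and 8531 units on all arrays.

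The rest of the pathway was read from a list of 62 further genes, of which 55 had a probe set and 40 were tested. In irradiated lungs against control 2 rose and 1 fell, where 4.40% of all tested genes were called. Without control replicate 4, 4 rose and 0 fell, where 6.83% were called, with Anxa1 at 0.23 (adjusted p = 0.0355, limma) and Tbxas1 at 0.40 (adjusted p = 0.0193, limma) added to the first 2. Anxa1 encodes annexin A1, a ligand of Fpr2, and Tbxas1 encodes thromboxane synthase. Fpr2, a receptor of neutrophils and macrophages for formyl peptides and for lipoxin A4, had a signal of 1267, 1017 and 711 in irradiated lungs, against 384, 305, 316 and 502 in controls. Its log2 fold change was 1.36 (SE 0.30; adjusted p = 0.0114, limma), and it was called without control replicate 4 too (adjusted p = 0.00627, limma). Cyp4f18, a leukotriene B4 hydroxylase of mouse neutrophils, had 524, 429.8 and 299 units in irradiated lungs, against 185, 147, 210.2 and 237 in controls, a change of 1.03 (SE 0.18; adjusted p = 0.00159, limma), and of 1.12 (adjusted p = 0.000805, limma) without control replicate 4. The irradiated lungs lay above all controls for both genes. Both are expressed by neutrophils, and Fpr2 also by macrophages. Marker genes of neutrophils and of monocytes and interstitial macrophages rose in the same arrays, while of 7 tested alveolar macrophage genes 2 rose and 2 fell. The part of these cell types in the changes of Fpr2 and Cyp4f18 was not tested.

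Cysltr1, a receptor for the cysteinyl leukotrienes, changed in different directions by comparison. It had a signal of 206, 191 and 158 in irradiated lungs, against 236, 242, 223 and 289 in controls, a log2 change of -0.39 (SE 0.10; adjusted p = 0.0255, limma). Control replicate 4 was the highest of all, and without it the change was -0.32 (adjusted p = 0.0521, limma) and no longer passed. Cysltr1 was also lower with FTY alone, at 172, 167 and 148 units (-0.56; adjusted p = 0.00805, limma), and with SEW alone, at 149, 176 and 159.7 units (-0.56; adjusted p = 0.00155, limma). Both calls held without control replicate 4, at -0.49 with FTY (adjusted p = 0.0139, limma) and -0.49 with SEW (adjusted p = 0.00405, limma). With SEW, Pla2g1b, a secreted phospholipase A2, fell too, at -0.54 (adjusted p = 0.0427, limma), and at -0.65 (adjusted p = 0.0216, limma) without control replicate 4. With FTY alone 1 of the 40 genes fell and 0 rose, where 2.73% of all tested genes were called. With SEW alone 2 of the 40 fell and 0 rose, where 14.6% of all tested genes were called. The comparisons of radiation, FTY and SEW with control share the control arrays.

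With SEW the difference of irradiated from unirradiated lung in Cysltr1 had the opposite sign. It had 217, 249.4 and 221 units with radiation and SEW, against 149, 176 and 159.7 with SEW alone, a rise of 0.46 (SE 0.10; adjusted p = 0.00566, limma) with no overlap. The interaction of radiation and SEW was 0.85 (adjusted p = 0.00137, limma), and 0.78 (adjusted p = 0.002, limma) without control replicate 4. The interaction with fTyS was 0.63 (adjusted p = 0.0356, limma), and 0.56 (adjusted p = 0.0438, limma) without it. In the SEW interaction 3 of the 40 genes were called positive and 1 negative, where 13.9% of all tested genes were called. In the fTyS interaction 2 of the 40 were called positive and 0 negative, where 1.35% of all tested genes were called. With radiation and fTyS the signals were 279.9, 244 and 239, against 154, 188 and 171 with radiation and FTY, a difference of 0.53 (adjusted p = 0.0157, limma).

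When SEW was added to radiation, 2 of the 40 genes fell and 1 rose, where 2.48% of all tested genes were called. Fpr2 had 288, 402 and 521.5 units with SEW and radiation, against 1267, 1017 and 711 after radiation alone (-1.27; adjusted p = 0.0402, limma). Cyp4f18 had 166, 205 and 195 units with SEW and radiation, against 524, 429.8 and 299 after radiation alone (-1.05; adjusted p = 0.00721, limma). These are the same 2 genes that rose with radiation, and the arrays of radiation alone enter both comparisons. Ptgfr, the receptor for prostaglandin F2 alpha, had 204, 243 and 216 units with SEW and radiation and 189, 221 and 255.5 with fTyS and radiation, against 145, 155 and 167 after radiation alone. It rose by 0.46 with SEW (adjusted p = 0.0261, limma) and by 0.46 with fTyS (adjusted p = 0.0448, limma). In the fTyS comparison Ptgfr was the single gene of the 40 called, where 0.858% of all genes were. With FTY added to radiation 0 of the 40 passed, where 3.02% of all genes did.

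Against the compound alone, 5 of the 40 rose and 0 fell with radiation and SEW, and 6 rose and 0 fell with radiation and FTY. All tested genes were called at 17.7% and 14.1% in these comparisons, so the counts of pathway genes are near the background. Fpr2 and Pla2g15, a lysosomal phospholipase A2, were among those that rose in both. Ptgir, the prostacyclin receptor, had 264, 271 and 254 units with radiation and FTY, against 140.2, 139 and 162.5 with FTY alone, a log2 change of 0.78 (adjusted p = 0.0252, limma). Ptgis, the synthase of its ligand, was also called higher in this comparison, a call lost without FTY replicate 3 or radiation+FTY replicate 2. A link between these genes was not tested. In controls Ptgir had 116, 264, 296 and 207 units, so that its values with radiation and FTY lie inside the range of the controls. The median log2 fold change over the 40 genes was 0.16 in radiation+FTY against FTY, against 0.04 over all tested genes.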

How the data were processed

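Lung RNA of 25 mice in 8 groups was hybridised to Affymetrix arrays. Each deposited value is the linear signal intensity of a probe set on an array, and GCOS is named without a version, per the submitters' processing notes. Its summary, background and scaling steps are not given in the sources used here. Array medians ran from 118.05 to 129.28, and precision is limited by the number of arrays. Of 45101 probe sets, 64 were controls. Of the rest, 34945 had 1 symbol, 932 several and 9160 none in the platform annotation, and the last 2 kinds were left out. Genes at or below the 40th percentile of mean log2(signal + 16), 6.49, were left out.

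One limma fit (limma 3.58.1, R 4.3.3; 8 group means, eBayes with trend, 17 residual degrees of freedom) on all arrays gave 19 comparisons. Two-sided p values were adjusted by Benjamini-Hochberg over 12937 genes within each comparison. The script was tested on simulated data. The members and gene lists were chosen with earlier results of these data known, and the p53 list after seeing the data. All members are named, other pathway genes where called in a comparison with control or of a compound added to radiation (others named were chosen after their values were seen), and the 3 genes most alike each member called there. Samples were grouped by the labelled treatment. The labels give no batch. Same-numbered arrays had correlations of their deviations over 0.1 in all 3 pairs in 5 comparisons (radiation against control, fTyS against control, radiation+fTyS against radiation and against fTyS, and FTY against SEW). Values with the replicate block are given for radiation against control and radiation+fTyS against radiation. For the others only the counts of members called were compared. The block is shared by all groups in the fit and is not a paired test of a comparison. In other comparisons same-numbered arrays deviated in opposite directions, down to r = -0.81 (fTyS against SEW, replicate 2). Alternatives were other scalings, pseudocounts, filters, probe sets, weights, covariates, subsets and left-out arrays. Promoter windows come from RefSeq, and 8 of the 10 genes have one.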

Additional observations from a re-analysis of the deposited data

Results flagged for a closer look

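The change of Alox5ap with radiation differed between lungs with and without SEW in the test of the difference itself. The radiation change was 0.50 with SEW, against 1.27 without it, on the log2 scale, an interaction of -0.777 (adjusted p = 0.0429, limma). Alox5ap was 1 member called of 9 in this comparison, where 13.9% of all tested genes were called, so the count does not stand above the background. The interaction was called in 2 of 13 fits that left out 1 array of the 4 groups, with values between -1.01 and -0.56, and in 9 of 11 other settings. Control replicate 4 is 1 of the arrays in this comparison, and without it the value was -0.903.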

How the results depend on the processing

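The count of members called was recomputed under 11 other settings and with each array left out, and no called change turned its direction. With quantile normalization SEW against control gave 0. Median centring gave 0 for SEW against control and for radiation+FTY against radiation, and 1 for the interaction of radiation and FTY. With no filter SEW against control, radiation+FTY against radiation and the interaction of radiation and SEW gave 0, and a filter at the 60th percentile gave 1 for radiation against control. With the mean of all probe sets SEW against control and radiation+FTY against radiation gave 0. Array weights gave 4 in radiation+fTyS against fTyS, 3 in fTyS against control, SEW against control, radiation+SEW against radiation, radiation+SEW against SEW and fTyS against SEW, 2 in radiation+fTyS against radiation, radiation+FTY against radiation and the interaction with fTyS, and 1 in FTY against SEW, radiation+fTyS against radiation+SEW and the interaction with FTY. With the replicate block, where replicate numbers need not mark shared mice, radiation against control gave 4, radiation+FTY against FTY 5, the interaction with fTyS 1, and SEW against control and radiation+FTY against radiation 0, and it changed no other count by over 1.5 times. With muscle and adipocyte covariates SEW against control and radiation+FTY against radiation gave 0, radiation+SEW against SEW 2, the interaction with fTyS 1 and the interaction with SEW 2. Fits on the arrays compared alone, which have fewer residual degrees of freedom, gave 0 for radiation against control, SEW against control, all 3 compounds added to radiation and the interaction with SEW, and 4 for radiation+SEW against SEW. Leaving out 1 array gave 1 to 4 for radiation against control and 0 to 1 for SEW against control, FTY against control, radiation+fTyS against radiation, radiation+FTY against radiation, radiation+SEW against SEW and the interactions with fTyS, SEW and FTY. The interaction with FTY gave its 1, Ptgis at 0.53 (adjusted p = 0.0195, limma), without radiation replicate 1. Ptgds, not called in any comparison here, turned its sign and passed at -0.52 (adjusted p = 0.035, limma) in radiation+FTY against FTY with the mean of all probe sets and at -0.43 (adjusted p = 0.00373, limma) in radiation+fTyS against fTyS with array weights. The cause of these changes was not tested beyond the fewer arrays or genes named. Signals near background limit Ptgds, whose dimmer probe set lay between 7.71 and 79.7 units. Singling out control replicate 4 among the left-out arrays, and leaving it out of the tests of the other pathway genes, was chosen after seeing the data.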
